A study of Mus musculus with 2 samples.

Results

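Exon peaks are the regions of open chromatin that the deposited annotation places in an exon, chosen by that annotation alone and not by their signal. They numbered 2371 of 63316 peaks (3.74%) and belonged to 2201 genes. Of these genes, 2047 had 1 exon peak, 140 had 2, 13 had 3 and 1 had 5. Primary murine cardiac fibroblasts, labelled as heart, were profiled by ATAC-seq, an assay in which a transposase cuts open DNA, so that read density follows accessibility. Cells of both libraries had received TGF-β (5 ng/ml, 24 h), the cytokine that turns fibroblasts into contractile, matrix-secreting myofibroblasts. The control library (NC) had scrambled siRNA and the other (siPiezo2) had siRNA against Piezo2, a channel that opens when the membrane is stretched. The design text of the series instead names a knockout of Tet3 with Cre recombinase. The groups follow the sample titles and the study's legend, which name Piezo2, and why the design text differs was not settled. The study's methods put its mouse strains on a C57BL/6 J background, and the age of the mice that gave the cultured fibroblasts is not given in the sources used here. With 1 library per condition there was no replicate check, so all values are descriptions of these libraries, and no test between conditions was possible.

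Chromatin opens mainly at promoters and enhancers, but exons can open as well. A first exon lies beside its promoter, and an exon deep in a gene can hold an enhancer, so that the same bases may encode protein and bind transcription factors. AP-1, the dimer of FOS and JUN proteins, and TEAD, the DNA-binding partner of YAP and TAZ, occupy many fibroblast enhancers. SRF, which binds the CArG box, drives contractile and cytoskeletal genes in response to actin.

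Marker genes were checked first over peaks of every class. Of 9 fibroblast markers, 8 had a peak at the promoter or 5′ UTR. The same held for 1 of 6 cardiomyocyte, 1 of 6 endothelial, 0 of 6 macrophage and 1 of 5 mural markers. With any class of peak counted, 8 of 9 fibroblast, 2 of 6 cardiomyocyte, 5 of 6 endothelial, 4 of 6 macrophage and 4 of 5 mural markers had a peak. Piezo2 itself had 14 peaks, and 0 of them were exon peaks. The windows behind all peaks held 4615335 reads in NC and 2754046 in siPiezo2, and those behind exon peaks 186145 and 112343. Exon peaks thus took nearly the same share of the reads in each library, 4.03% in NC and 4.08% in siPiezo2.

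Several exon peaks lay in short coding exons. The sequences shown first are of coding exons that hold a motif of AP-1 (TGANTCA, which reads alike on both strands) or TEAD (GGAATG or its reverse complement CATTCC), and motif matches are in capitals. They are given 5′ to 3′ on the strand of the gene, from GENCODE M21 transcripts by transcript identifier and exon number. The positions in this paragraph are on GRCm38, the build of that reference, while positions of peaks elsewhere are on GRCm39 as the table gives them. Itgb3 exon 8 of 15 (chr11:104641001-104641090, plus strand) encodes a stretch of integrin β3, and Siglecg exon 4 of 12 (chr7:43409243-43409521, plus strand) of a sialic acid-binding receptor of B cells. Pfkm exon 22 of 23 (chr15:98131602-98131707, plus strand) encodes part of muscle phosphofructokinase, and Cntn5 exon 18 of 21 (chr9:9673797-9673983, minus strand) part of a neuronal adhesion protein, contactin 5. Tcte2 exon 3 of 5 (chr17:13717500-13717633, minus strand) holds an AP-1 match and Fbn1 exon 4 of 66 (chr2:125477497-125477595, minus strand), of the microfibril protein fibrillin 1, a TEAD match. In Cntn5 the matches of both motifs overlap.
Itgb3 exon 8: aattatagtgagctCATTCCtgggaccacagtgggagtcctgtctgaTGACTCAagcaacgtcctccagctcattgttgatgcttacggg
Siglecg exon 4: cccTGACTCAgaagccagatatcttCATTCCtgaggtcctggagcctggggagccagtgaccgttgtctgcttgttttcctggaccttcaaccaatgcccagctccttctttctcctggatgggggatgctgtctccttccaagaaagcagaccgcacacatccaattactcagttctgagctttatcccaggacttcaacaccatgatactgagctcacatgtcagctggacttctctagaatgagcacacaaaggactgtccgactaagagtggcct
Pfkm exon 22: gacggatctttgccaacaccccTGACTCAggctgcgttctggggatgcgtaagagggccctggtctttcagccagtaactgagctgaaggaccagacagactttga
Cntn5 exon 18: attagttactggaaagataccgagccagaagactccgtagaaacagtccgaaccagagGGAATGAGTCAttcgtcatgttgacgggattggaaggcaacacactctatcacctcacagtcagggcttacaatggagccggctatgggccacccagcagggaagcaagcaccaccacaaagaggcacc
Tcte2 exon 3: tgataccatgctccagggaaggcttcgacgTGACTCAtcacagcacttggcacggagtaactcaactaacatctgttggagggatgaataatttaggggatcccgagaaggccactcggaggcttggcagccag
Fbn1 exon 4: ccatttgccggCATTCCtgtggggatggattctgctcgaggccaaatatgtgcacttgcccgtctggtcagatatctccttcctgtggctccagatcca

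Other coding exons are shown because their peaks were among the most changed or belong to matrix and contractile genes. They hold no match to either motif or to the CArG box. Ppp1r12b exon 2 of 24 (GRCm38 chr1:134902378-134902508, minus strand) encodes part of a targeting subunit of myosin phosphatase, and Met exon 13 of 22 (GRCm38 chr6:17546950-17547096, plus strand) part of the hepatocyte growth factor receptor. Tpm1 exon 2 of 8 (GRCm38 chr9:67035995-67036128, minus strand) encodes part of tropomyosin 1, and Hspg2 exon 10 of 97 (GRCm38 chr4:137511842-137511973, plus strand) part of the basement membrane proteoglycan perlecan. Col1a2 exon 36 of 52 (GRCm38 chr6:4531104-4531157, plus strand) is 54 bases of the α2 chain of type I collagen, and 6 of its 18 codons, in capitals, encode glycine, the residue that recurs throughout the triple helix.
Ppp1r12b exon 2: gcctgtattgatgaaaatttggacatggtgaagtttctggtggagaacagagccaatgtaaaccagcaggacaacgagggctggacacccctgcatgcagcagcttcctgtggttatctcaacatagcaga
Met exon 13: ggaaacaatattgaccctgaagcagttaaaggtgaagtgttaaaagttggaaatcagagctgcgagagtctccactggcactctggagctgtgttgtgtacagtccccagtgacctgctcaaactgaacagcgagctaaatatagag
Tpm1 exon 2: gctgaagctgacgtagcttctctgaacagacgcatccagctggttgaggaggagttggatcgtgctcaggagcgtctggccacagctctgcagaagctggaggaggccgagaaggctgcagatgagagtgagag
Hspg2 exon 10: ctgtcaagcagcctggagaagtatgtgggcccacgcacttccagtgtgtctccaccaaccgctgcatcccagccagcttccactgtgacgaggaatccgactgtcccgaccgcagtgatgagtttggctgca
Col1a2 exon 36: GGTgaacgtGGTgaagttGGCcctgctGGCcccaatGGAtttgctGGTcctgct

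AP-1 matches were common in coding exons under a peak. Of the 340 exon peaks in exons that are wholly coding, 275 were in exons of 50 to 300 bases, and the AP-1 motif was in 39 of these exons (14.2%). Among 160303 coding exons of protein-coding transcripts in the same size range it was in 2.77%. By exon length, the share was 15.6%, 14.9%, 15% and 10.7% in successive length classes ending at 100, 150, 200 and 300 bases, against 1.89%, 2.67%, 3.45% and 4.69% of all coding exons of these sizes. With C or G required in the middle, the motif was in 28 exons under a peak (10.2%) and in 1.40% of all coding exons. Median GC content was 54.9% in the exons under a peak and 50.9% in all coding exons. A match is a run of letters and not a shown binding site, and no test was made of these shares.

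**Figure D1:**
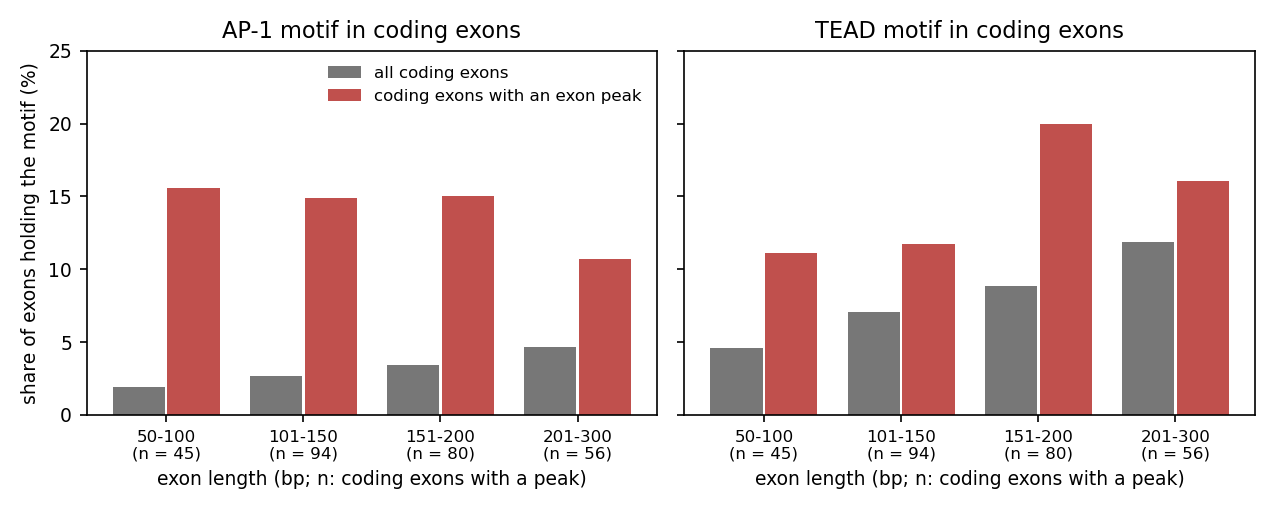
Share of coding exons that hold the AP-1 motif (left) or the TEAD motif (right), by exon length, for exons with an exon peak (red) and all coding exons (grey). AP-1 shares were 10.7% to 15.6% under peaks and 1.89% to 4.69% in all coding exons, while the TEAD shares lay closer together.

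TEAD matches were also more frequent under peaks, at 14.9% (41 of 275) against 7.08% of all coding exons. By length the shares were 11.1%, 11.7%, 20% and 16.1% under peaks and 4.59%, 7.04%, 8.82% and 11.9% in all coding exons. The CArG box of SRF was in 1 exon under a peak (0.364%) and in 0.468% of all coding exons. In all that follows, a log2 ratio is log2((siPiezo2 + 1)/(NC + 1)) of the authors' normalized densities, negative where siPiezo2 was lower, and a peak is counted as past 1.5-fold where that ratio was below 0.66 or above 1.5. Of all 63316 peaks, 13.5% were lower and 3.21% higher past 1.5-fold. Exons with the AP-1 motif had a median log2 ratio of -0.06, with 2 of 39 lower and 2 higher. Exons without it had a median of -0.13, with 33 of 236 (14.0%) lower and 14 (5.93%) higher. Those with the TEAD motif had a median of -0.25, with 10 of 41 lower (24.4%) and 1 higher. Exons without the TEAD motif had a median of -0.10, with 25 of 234 (10.7%) lower and 15 (6.41%) higher. Both motifs were in 7 exons, and no difference between these groups was tested. Counted relative to the median of all peaks, the TEAD exons stayed 0.11 to 0.13 below it under each of 6 scalings. In the 4 scalings other than the authors' with either pseudocount, only 4 of 41 (9.76%) were lower past 1.5-fold. The share of all peaks that were lower in these 4 scalings was 7.28% to 9.97%.

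The exons behind these motif counts differed widely in depth. Siglecg exon 4 (chr7:43058469-43059051) holds both motifs, and its density was 88.1 in NC and 51.6 in siPiezo2 (232 and 77 reads). Its log2 ratio was -0.76 (95% interval -1.17 to -0.41). Pfkm exon 22 had 66 and 28 reads, with a log2 ratio of -0.65 (-1.40 to -0.05). Both intervals lay below 0 in the authors' densities, that of Pfkm only just. Median-of-ratios scaling moved the median of all peaks up by 0.13, more than that margin. Trpm3 exon 3, in a cation channel gene, holds a TEAD match and had 53 and 17 reads, with a log2 ratio of -1.07 (-2.08 to -0.39). Iqgap1 exon 1, in the gene of an actin scaffold protein, had 45 and 16 reads and a ratio of -0.95 (-2.001 to -0.23), and Fbn1 exon 4 had 56 and 25 reads and -0.61 (-1.41 to 0.03), an interval that includes 0. On the higher side, Cntn5 exon 18 had 31 and 51 reads and a ratio of 1.15 (0.55 to 1.92). Trpm3, Iqgap1, Siglecg, Pfkm and Cntn5 were chosen for display after their values were seen.

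Over all exon peaks, density ranged from 7.95 to 191 with a median of 27.2 in NC, and from 6.12 to 248 with a median of 25.1 in siPiezo2. The median log2 ratio was -0.09 (quartiles -0.34 and 0.15), and 60.2% of exon peaks were lower in siPiezo2, against 63.7% of all peaks. Past 1.5-fold, 237 exon peaks (10.0%) were lower, a smaller share than the 13.5% of all peaks, and 82 (3.46%) were higher, close to the 3.21% of all peaks. The 95% interval of the reads lay below 0 for 273 exon peaks (11.5%) and above 0 for 111 (4.68%), against 13.8% and 4.03% of all peaks. Of the exon peaks past 1.5-fold, 74.3% were lower, against 80.8% among all peaks past it. The split of exon peaks depended on the scaling, with 57.4% lower at the same total density and 46.3% with median-of-ratios scaling. It was 45.6% with a trimmed mean and 41.7% where recovered reads were set to equal totals. The last 3 moved the median of all peaks up by 0.13 to 0.15. Relative to the median of all peaks, exon peaks were 0.04 higher in the authors' densities and between 0.02 and 0.05 higher under every scaling tried.

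**Figure D2:**
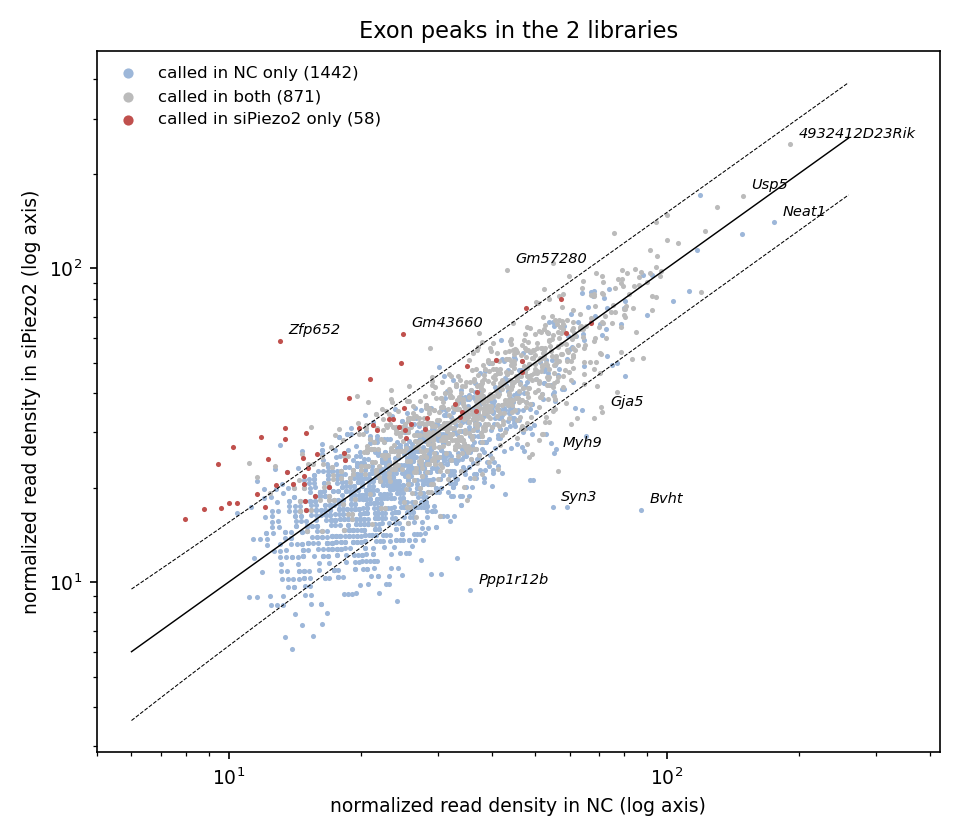
Normalized read density of each exon peak in NC (horizontal, log axis) and siPiezo2 (vertical, log axis), coloured by the library of the call. The solid line marks equal densities and the dashed lines 1.5-fold. Bvht and Ppp1r12b lie farthest below the lines and Zfp652 farthest above.

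Exon peaks stood between promoter and intron peaks. The median log2 ratio was -0.03 at 9251 promoter peaks no farther than 1 kb from a transcription start site (TSS), -0.17 at 26569 intron peaks and -0.18 at 19430 distal intergenic peaks, and 5.86%, 14.8% and 16.6% of these were lower past 1.5-fold. Exon peaks were 0.08 above intron peaks and 0.06 below promoter peaks in the authors' densities, but 0.03 above and 0.01 below them when recovered reads at the same total were used. In the annotation, all promoter peaks lie upstream of or at the TSS (9161 and 90 of 9251), so that open chromatin just downstream is divided among the 5′ UTR, exon and intron classes. Of the exon peaks, 2114 lay downstream of the nearest TSS and 257 upstream. Within 1 kb of a TSS the order of the classes was kept, with medians of -0.03 for promoter, -0.08 for exon and -0.11 for intron peaks. Among the strongest 25% of all peaks by mean density, medians were 0.03, -0.03 and -0.13 for promoter, exon and intron peaks, and 2.76%, 5.68% and 11.4% were lower. In the weakest 25% the medians kept that order but lay close together, at -0.21, -0.22 and -0.24. The shares lower did not keep it, at 20.2%, 17.7% and 19.5%. In the 2 strength classes between, promoter and exon medians were -0.11 and -0.11, then -0.07 and -0.08, and intron medians were -0.14 in both. In 875 genes with both kinds of peak, the exon peaks lay above the intron peaks by a median of 0.07 (quartiles -0.23 and 0.39), and in 610 genes they lay below the promoter peaks by a median of -0.04 (-0.30 and 0.18).

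**Figure D3:**
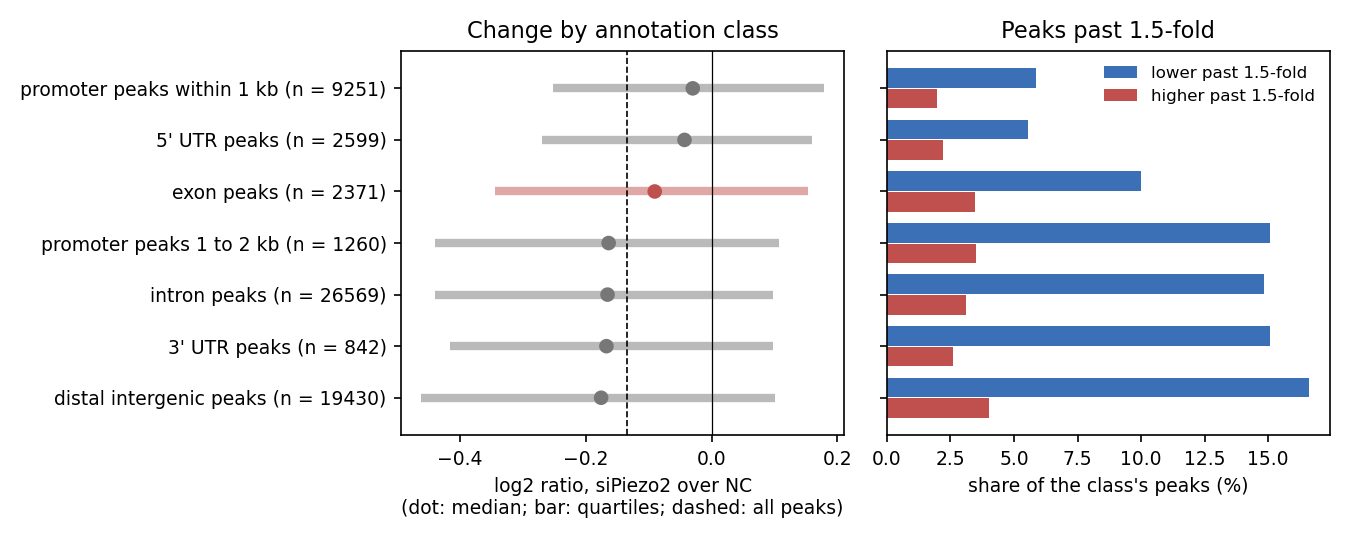
Left, median (dot) and quartiles (bar) of the log2 ratio of siPiezo2 to NC by annotation class, with the median of all peaks dashed. Right, share of each class past 1.5-fold in either direction. Exon peaks (red, left) had a median of -0.09 and 10.0% lower, between promoter peaks (5.86%) and intron peaks (14.8%).

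The exons differed in position and kind. Exon 1 held 1180 of the 2371 peaks (49.8%), of which 476 were in transcripts of a single exon. First exons of longer transcripts (704 peaks) had a median log2 ratio of -0.09 and 58 lower and 22 higher past 1.5-fold. Internal exons (539 peaks) also had a median of -0.09, with 56 lower and 27 higher. Last exons (652 peaks) had a median of -0.11, with 84 lower (12.9%) and 24 higher, and single exons -0.05, with 39 lower and 9 higher. Whether these groups differ was not tested. For 2062 peaks the exon could be matched to GENCODE M21 by transcript and exon count. Only 767 of these (37.2%) contained coding sequence, while 559 were exons of retained-intron transcripts, which are incompletely spliced forms, and 736 of other noncoding transcripts. Lower peaks made up 11.8% in wholly coding exons, 7.49% in exons with coding and untranslated bases, 10.6% in retained-intron transcripts and 11.1% in other noncoding transcripts. Beyond 1 kb of a TSS, the retained-intron share was 15.3% (42 of 274), and within 1 kb it was 5.96% (17 of 285).

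Exon peaks beyond 10 kb of a TSS had the largest share of lower peaks among the 4 distance classes, but the share did not rise steadily with distance. The nearest TSS was at a median distance of 805 bp. Of 1248 exon peaks within 1 kb, 94 (7.53%) were lower and 35 higher, with a median log2 ratio of -0.08. Between 1 and 3 kb, 42 of 349 (12.03%) were lower and 9 higher, and between 3 and 10 kb 38 of 406 (9.36%) were lower and 23 (5.67%) higher. Beyond 10 kb, 63 of 368 (17.1%) were lower and 15 higher, with a median of -0.14. Intron peaks beyond 10 kb were near that, with 15.8% lower and a median of -0.18. Only 7 exon peaks lay beyond 100 kb, and 0 of them was past 1.5-fold. With recovered reads at the same total the order of the medians was not kept, at 0.02 within 1 kb and 0.05 beyond 10 kb. Of the 368 distant exon peaks, 29 (7.88%) were then lower and 35 (9.51%) higher, against 7.28% and 7.78% of all peaks.

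Exon peaks differed most by where they had been called. Peaks called in NC only numbered 1442 (60.8%), with a median log2 ratio of -0.18 and 204 lower (14.1%) and 22 higher. Over all peaks 64.0% were called in NC only, with a median of -0.23 and 18.3% lower. The 871 called in both had a median of 0.01, with 33 lower (3.79%) and 36 higher (4.13%). Over all peaks called in both, the median was 0.0025, with 5.36% lower and 4.41% higher. Whether the normalization itself set the medians of peaks called in both near 0 was not tested. The 58 called in siPiezo2 only had a median of 0.49, with 0 lower and 24 higher (41.4%). Over all peaks called in siPiezo2 only, the median was 0.58, with 49.8% higher. A peak is more readily called in the library where it is stronger, and NC was the deeper library, so this split is not independent of the ratio. Overlap of counting windows was common, as 634 exon peaks (26.7%) had a window of 2000 bp that ran into that of another peak, against 19.8% of all peaks. Matched exons had a median length of 589.5 bp, and 516 of 2062 were longer than the window, so that the density of most exon peaks includes reads from beside the exon.

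**Figure D4:**
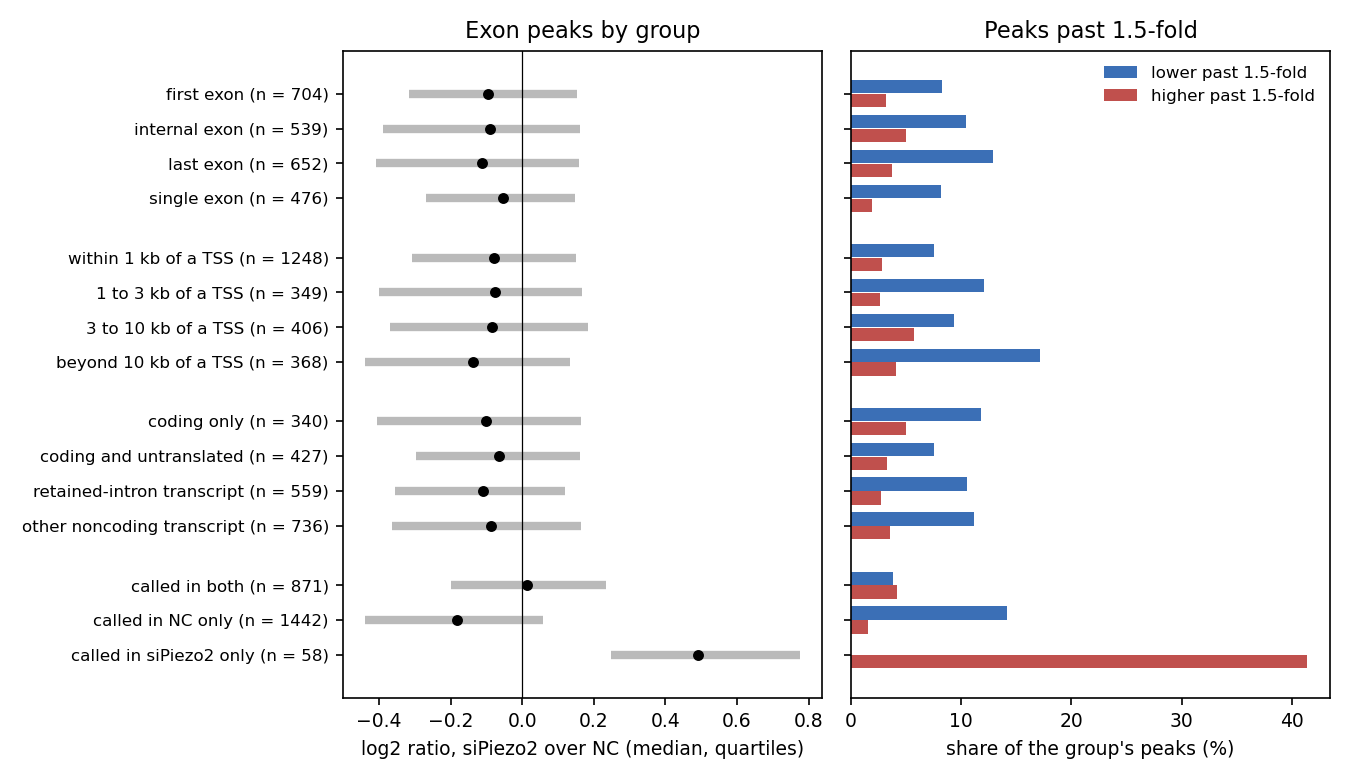
Left, median (dot) and quartiles (bar) of the log2 ratio of exon peaks by exon position, distance to the nearest TSS, kind of exon and library of the call. Right, share of each group past 1.5-fold. The share lower was 7.53% within 1 kb of a TSS and 17.1% beyond 10 kb. Exon peaks called in siPiezo2 only had 0 lower and 24 of 58 (41.4%) higher, against 49.8% higher over all such peaks.

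Among the 593 strongest exon peaks (the upper 25% by mean density), the log2 ratio ranged from -2.29 to 1.28, and 34 were lower and 14 higher past 1.5-fold. The lowest was in exon 1 of Bvht (Braveheart), a long noncoding RNA known from cardiac lineage commitment (chr18:61777797-61778363). Its density was 87.3 in NC and 17.0 in siPiezo2 (219 and 26 reads), with a log2 ratio of -2.29 (-3.05 to -1.82). The 7 other peaks of Bvht were all below 0, between -1.33 and -0.23. Next came noncoding Gm50016 with 166 and 45 reads (-1.13) and a pair of peaks in exon 3 of a retained-intron transcript of Myh9, the heavy chain of non-muscle myosin IIA. The Myh9 peaks (chr15:77691298-77691622 and chr15:77690859-77691164) had 138 and 40 reads and 140 and 41 reads, with log2 ratios of -1.07 (-1.67 to -0.61) and -1.05 (-1.64 to -0.59). Their windows overlap, so they share reads and do not count as separate observations.

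The other 6 of the 10 lowest strong exon peaks included 4 in protein-coding genes. Gja5 exon 3, with most of the coding sequence of the gap junction protein connexin 40 (chr3:96958525-96959199), had densities of 71.0 and 34.8 (182 and 53 reads) and a log2 ratio of -1.01 (-1.52 to -0.60). Smoc2, a matricellular protein, had 136 and 43 reads in the last exon of a retained-intron transcript, with a ratio of -0.94 (-1.52 to -0.49). Itsn1, an endocytic scaffold protein, had 199 and 61 reads and a ratio of -0.91 (-1.38 to -0.53), and a neighbouring Itsn1 peak in the same exon, whose window overlaps, had 210 and 68 reads and -0.82. The rest of the 10 lowest were in exon 1 of Rdm1 (174 and 51 reads, -1.01) in the predicted gene Gm56961 (182 and 55 reads, -0.95) and in the noncoding Gm536 (153 and 49 reads, -0.90). All 10 had intervals below 0.

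The 10 highest strong exon peaks had log2 ratios between 0.63 and 1.28. They led with noncoding Gm43660 exon 2, at densities of 24.95 and 61.9 (62 and 97 reads) and a ratio of 1.28 (0.84 to 1.80), and the predicted gene Gm57280, at 43.2 and 99.0 (113 and 149 reads) and 1.18 (0.84 to 1.56). Among protein-coding genes, Pgs1, an enzyme of cardiolipin synthesis, had 72 and 87 reads and a ratio of 0.92 (0.48 to 1.42), and Med24, a Mediator subunit, 95 and 96 reads and 0.72 (0.31 to 1.16). Ppp1r10, a nuclear regulator of protein phosphatase 1, had 138 and 129 reads and a ratio of 0.70, Pola2, a subunit of DNA polymerase α, 75 and 76 reads and 0.67, and Smim14 159 and 140 reads and 0.64. The remaining 3 were in Gm50334 (0.91), Gm57214 (0.76) and Gm56894 (0.63). Ppp1r10 and Smim14 had fewer reads in siPiezo2 but a higher density, since the densities are scaled and that library had fewer reads in windows. A second exon 2 peak of Gm43660 had a ratio of -0.09.

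None of the 5 exon peaks of highest density was past 1.5-fold. The strongest was in exon 1 of noncoding 4932412D23Rik, with densities of 191 and 248 (559 and 338 reads) and a log2 ratio of 0.38 (0.18 to 0.57), and the next in exon 1 of Usp5, a deubiquitinase, with 149 and 170 (424 and 238 reads) and 0.19 (-0.04 to 0.42). Neat1, the RNA that scaffolds nuclear paraspeckles, followed with 176 and 140 (499 and 196 reads) and a ratio of -0.32 (-0.57 to -0.09), and then Gm57065 at 0.52 and 4930481B07Rik at 0.27. These values depended on how density was normalized. Recovered reads at the same total gave 0.02 for 4932412D23Rik, -0.09 for Usp5 and -0.60 for Neat1.

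**Figure D5:**
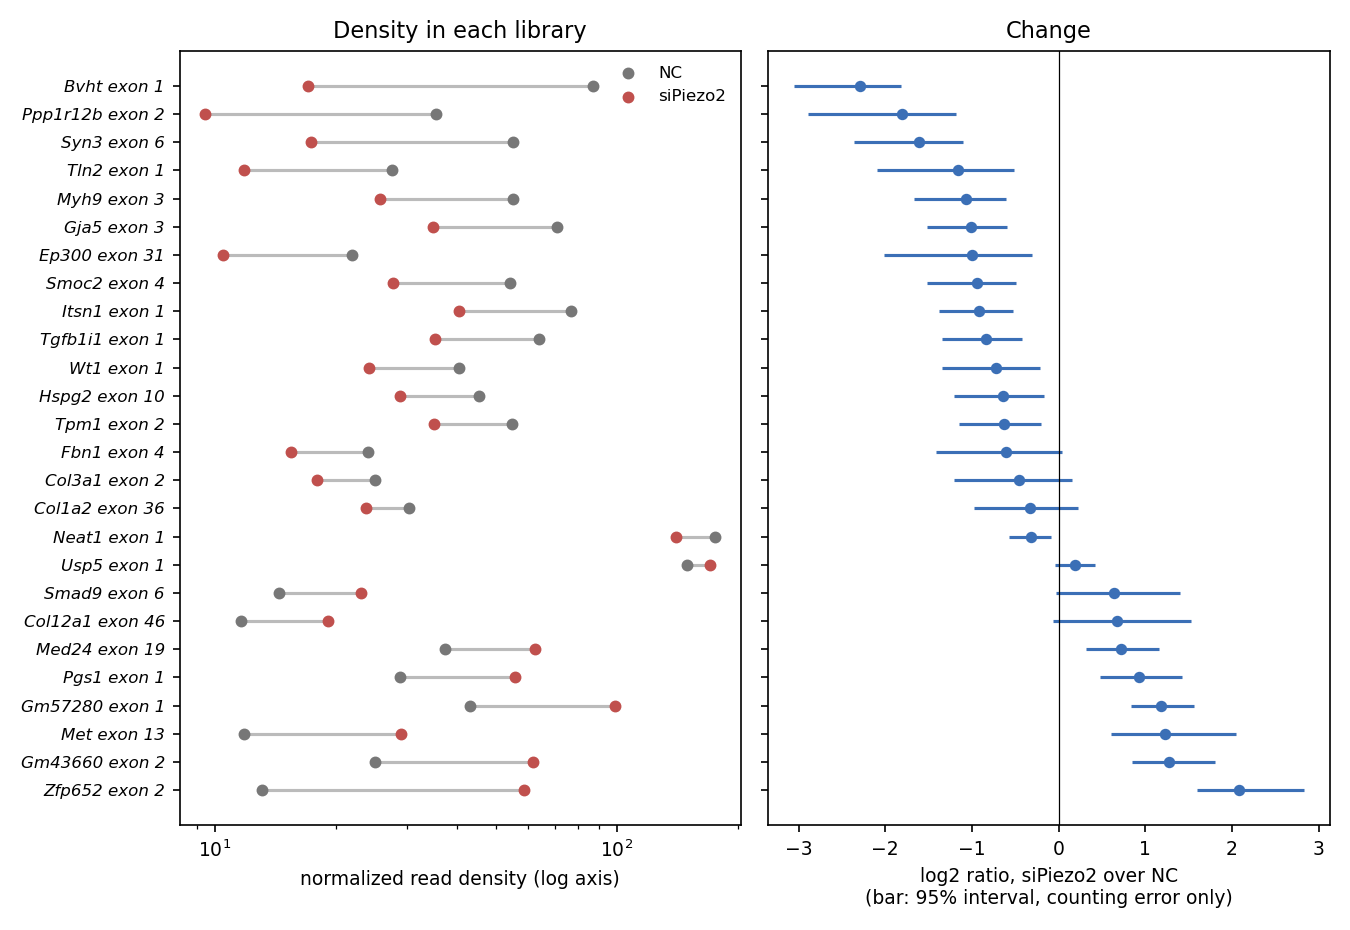
Exon peaks named in the text. Left, normalized read density in NC (grey) and siPiezo2 (red) on a log axis. Right, log2 ratio of siPiezo2 to NC with its 95% interval from recovered reads, which covers counting error only. Intervals ran from -3.05 to -1.82 for Bvht up to 1.60 to 2.83 for Zfp652.

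Weaker exon peaks held the other large ratios, and those in this paragraph were chosen after their values were seen. In all, 33 exon peaks had a log2 ratio below -1 (1.39%) and 11 above 1 (0.464%), against 2.76% and 0.504% of all peaks. Of the former, 30 had been called in NC only and 12 lay beyond 10 kb from a TSS, and of the latter 8 had been called in siPiezo2 only. Ppp1r12b exon 2, shown above (chr1:134829974-134830390), had densities of 35.5 and 9.45 (83 and 15 reads) and a ratio of -1.81 (-2.89 to -1.18), while the 11 other peaks of the gene had a median of 0.03 and 2 of them were lower past 1.5-fold, down to -0.87. The last exon of a retained-intron transcript of Syn3, the synaptic vesicle protein synapsin III, had 135 and 27 reads and a ratio of -1.61 (-2.36 to -1.11). Adamts20 exon 26, in a matrix metalloprotease gene, had 71 and 17 reads and a ratio of -1.44 (-2.44 to -0.81). In the other direction, Zfp652 exon 2, in a zinc finger repressor gene (chr11:95640402-95641032), had densities of 13.1 and 58.8 (31 and 95 reads) and a ratio of 2.09 (1.60 to 2.83), the highest of all exon peaks, while the 6 other peaks of Zfp652 had a median of -0.05. Met exon 13 had 27 and 48 reads and a ratio of 1.22 (0.60 to 2.05), and the 8 other Met peaks lay between -0.28 and 0.07. None of the other peaks of Zfp652 and Met was past 1.5-fold.

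Gene lists of fibroblast biology touched few exon peaks. The 19 lists, chosen with earlier results of these data known, hold 581 genes, of which 52 had an exon peak. These genes had 59 exon peaks, with 9 lower (15.3%) and 2 higher (3.39%) past 1.5-fold, near the 13.5% and 3.21% of all peaks. The 6 exon peaks of the actin cytoskeleton and contraction list were all below 0, with 3 lower and a median of -0.62. With the strongest peak of each gene alone, since the Myh9 peaks share reads, 2 of 5 were lower. The 6 peaks of the list were both Myh9 peaks, Tpm1 exon 2 at densities of 54.9 and 35.1 (139 and 54 reads, ratio -0.63, -1.15 to -0.20), Tpm4 (183 and 70 reads, -0.60), Pdlim1 (37 and 24 reads, -0.16) and Myl6 (169 and 89 reads, -0.13). The list of SRF targets had 7 exon peaks, all below 0, with 4 lower and a median of -0.63. It shares the Myh9, Tpm1 and Tpm4 peaks and adds Tgfb1i1 and Fosb. Tgfb1i1 encodes Hic-5, a focal adhesion adaptor, and its exon 1 peak (chr7:127845813-127846189) had densities of 63.9 and 35.3 (163 and 54 reads) and a ratio of -0.84 (-1.35 to -0.42), next to -0.62 at its promoter peak. Promoter peaks of Tpm1 and Myh9 had ratios of 0.19 and -0.06. Fosb, an immediate early gene, had ratios of -0.03 and -0.11 at peaks whose windows overlap. With 1 peak per gene, 3 of 5 in this list were lower. Both lists kept medians 0.48 or more below the median of all peaks under every scaling, with 5 or 6 of 6 and 5 to 7 of 7 peaks below 0. The counts past 1.5-fold ranged from 2 to 4 and from 3 to 5. Over peaks of any class, genes of the actin list had a median of -0.30, with 60 of 251 lower and 6 higher. Genes of the SRF list had a median of -0.32, with 47 of 188 lower and 6 higher.

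In the extracellular matrix structure list, 8 exon peaks lay in 6 genes, with 2 lower and 1 higher past 1.5-fold, 4 below 0 and a median of -0.06. Over all 288 peaks of any class in genes of the list the median was -0.25, with 53 lower and 8 higher. In the 4 scalings other than the authors' with either pseudocount, 0 of the 8 exon peaks were lower and 1 or 2 higher. The median of the exon peaks was then 0.015 to 0.081. Hspg2 exon 10 had densities of 45.5 and 28.8 (113 and 45 reads) and a ratio of -0.64 (-1.21 to -0.17), whereas exon 2 of Hspg2 had 122 and 85 reads and 0.22 (-0.20 to 0.63). Col12a1, a fibril-associated collagen, had ratios of 0.67 (-0.06 to 1.53) at exon 46 and 0.36 at exon 36, and Fbln1, a basement membrane glycoprotein, 0.34. The intervals of all 4 matrix exon peaks above 0 included 0. Of the 12 myofibroblast markers, 2 had an exon peak. Col3a1, type III collagen, had 59 and 29 reads and a ratio of -0.46 (-1.20 to 0.16), and Col1a2 exon 36 had densities of 30.3 and 23.8 (73 and 38 reads) and -0.33 (-0.97 to 0.22). Both were below 0 within counting error. The 5 exon peaks of matrix processing genes lay between -0.14 and 0.29, Mmp9 and Mmp14 among them, with 0 past 1.5-fold and a median of 0.04. Over the 161 peaks of any class of that list the median was -0.20, with 32 lower and 5 higher.

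Adhesion and signalling lists had few exon peaks past 1.5-fold. In the focal adhesion list, a single-exon retained-intron transcript of Tln2, talin 2, had 64 and 19 reads and a ratio of -1.16 (-2.10 to -0.52), while coding exon 53 of Tln2 had 34 and 36 reads and 0.53. The median of the list was 0.20 over 6 exon peaks, whereas over its 282 peaks of any class it was -0.21, with 58 lower and 2 higher. Of 7 exon peaks in the TGF-β, BMP and activin list, 1 was past 1.5-fold. It was in exon 6 of Smad9, a BMP signal transducer, with 33 and 38 reads and a ratio of 0.64 and an interval that included 0 (-0.03 to 1.40), and Ltbp4, which binds latent TGF-β, had 61 and 28 reads and -0.55 (-1.31 to 0.06). Tgif1, a repressor of SMAD-driven transcription, had 149 and 63 reads and -0.49 (-0.96 to -0.08), the only interval of the 7 that excluded 0. The list of cardiac fibroblast and mesoderm transcription factors had 3 exon peaks and a median of -0.0036, with Twist2 at 0.14 and Foxc2 at -0.0036. The remaining peak, in Wt1, a transcription factor of epicardium, had 99 and 38 reads and a ratio of -0.72 (-1.35 to -0.21). In the chromatin regulator list, all 4 peaks were below 0, led by the last exon of the acetyltransferase gene Ep300 with 50 and 17 reads and -1.002 (-2.01 to -0.30), and Tet3 had 98 and 55 reads and -0.16. The 4 exon peaks of TEAD, YAP and TAZ targets had a median of -0.02, the 4 of AP-1, KLF, EGR and RUNX genes -0.07, and the 2 homeobox peaks -0.30, and 0 of these was past 1.5-fold. Lists of mechanosensitive channels and of resting fibroblast markers had 0 exon peaks. Exon peaks of cardiomyocyte (2), endothelial (2), macrophage (2) and mural (1) marker genes and of housekeeping genes (2) had 0 past 1.5-fold, with ratios from -0.50 at Notch3 to 0.34 at Cd14.

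Some genes had several exon peaks. In Syne1, which encodes the nuclear envelope spectrin repeat protein nesprin 1 and had 5 exon peaks, the ratio was 0.53 at exon 118 (48 reads in each library), -0.51 at exon 77, 0.14 at exon 55 (182 and 113 reads), -0.41 at exon 51 and -0.23 at exon 47. The intervals of all 5 included 0. Among the 154 genes with 2 or more exon peaks, all peaks were below 0 in 62 and above 0 in 28, the rest being mixed, and the median span within a gene was 0.28. In 57 of these genes windows of the exon peaks overlapped, so that the peaks share reads, and the median span was 0.15. In the other 97 genes all peaks were below 0 in 33 and above 0 in 15, and the median span was 0.43. Predicted and RIKEN genes, mostly noncoding, made up 951 of the exon peaks and had 9.25% lower and 3.47% higher, near the shares of all exon peaks. Of 743 exon 1 peaks within 250 bp of a TSS, 435 were matched by symbol to RefSeq promoters of GRCm38.p6. The 250 bases upstream of the TSS had a median GC content of 57.6% and 14 CpG, against 52% and 6 in all 27025 promoters, and the AP-1 motif was in 19 of them (4.37%) against 6.87% of all, a difference that was not tested. These bases lie upstream of the exon.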

How the data were processed

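The 2 ATAC-seq libraries, NC and siPiezo2, 1 per condition, were grouped by their labels. TGF-β dose and time come from the study's figure legend. The labels name mm10, BWA 0.7.12 and the TD711 kit, which the study's reagent list also holds, while its ATAC-seq methods describe minced tissue and an Active Motif kit, and then bwa, Picard, MACS2, HOMER and featureCounts. The table's coordinates are those of GRCm39, since transcript starts equalled GRCm38 GENCODE M21 for 37 of 2076 exon peaks and transcript lengths for 1959. The signal columns are normalized read densities that the authors deposited. How they were normalized is not given in the sources used here, and a fit linear in mean log2 density was inferred from the values. Columns of the authors' own comparison (M value, log2 fold change and p-values) were not used as results. Exon peaks are those whose annotation begins with Exon.

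Densities were taken as (reads + 1) per kb of a window of 2000 bp before that fit. Intercept and slope were found from the requirement of whole reads, and 100% of peaks gave whole reads within 0.05 in both libraries. Exon peaks had a median of 65 and 40 reads, so single peaks are imprecise. Exact Clopper-Pearson 95% intervals of these reads, less the fitted offset, cover counting error only, and exon peaks called in both libraries varied 2.20 times as much (mean squared standardized deviation, 871 peaks). Log2 ratios have a pseudocount of 1, which understates changes of weak peaks, and thresholds were 0.66 and 1.5.

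Named were the 10 lowest and 10 highest ratios among the strongest 25% of exon peaks, the 5 of highest density, up to 4 exon peaks per gene list past 1.5-fold with 50 reads or more, exon peaks of myofibroblast markers, and genes with 4 or more exon peaks. Members and lists were chosen with earlier results of these data known. Motif searches and other names were chosen after seeing the data. Exon sequences were cut from transcripts by exon lengths. The procedures were tested on simulated data. Computation used Python 3.11.15 with pandas 2.3.3, scipy 1.17.1, numpy 2.4.6 and matplotlib 3.10.9.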

Additional observations from a re-analysis of the deposited data

How the results depend on the processing

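The scaling decided the sign of the exon medians. The median log2 ratio of all exon peaks, of first, internal and last exons was -0.0042, -0.010, -0.0051 and -0.028 at the same total density, 0.046, 0.039, 0.045 and 0.021 with median-of-ratios scaling, 0.049, 0.042, 0.048 and 0.024 with a trimmed mean (30% of ratios and 5% of densities at each end), and 0.036, 0.019, 0.089 and 0.048 from recovered reads at the same total. In the strongest 25% they were -0.022, -0.0030, 0.00026 and -0.065, in peaks called in both libraries 0.012, 0.022, 0.014 and 0.013, and first exons beyond 1 kb of a TSS (20 peaks) had -0.15. Lower and higher exon peaks past 1.5-fold numbered 136 and 158 with median-of-ratios scaling, 135 and 161 with a trimmed mean 126 and 176 from reads, and 167 and 124 at the same total density. Subsets hold fewer peaks by construction, with 34 and 14 in the strongest 25%, 33 and 36 called in both and 143 and 47 beyond 1 kb, and a 2-fold threshold left 33 and 11. The other 28 of 68 values kept their direction, with counts within 1.5 times. Those 28 include the 167 and the 181 lower with separate windows, and the values with a pseudocount of 0.1, without sex chromosomes and with 1 peak per gene.

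Alternatives chosen after seeing the data were run for groups and named peaks. Median ratios within 1 kb, at 1 to 3 kb and at 3 to 10 kb of a TSS turned to 0.0066, 0.0070 and (moved only) -0.0010 at the same total density, 0.056, 0.056 and 0.048 with median-of-ratios scaling, 0.059, 0.059 and 0.051 with a trimmed mean and 0.020, 0.049 and 0.090 from reads, where the median beyond 10 kb was 0.050. AP-1 exons turned to 0.020, 0.070, 0.073 and 0.14 in that order. Of 375 values of 75 named peaks, 1 changed sign (Usp5, -0.088 from reads). The cause was not tested. No paired analysis was possible because each condition had 1 library. Depth limits single peaks, as a median exon peak had 65 and 40 reads.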
